A study of Mus musculus with 12 samples.

Results

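Bst2, Rsad2, Ifitm1, Ifitm2, Ifitm3 and Ifitm6 encode interferon-associated restriction factors that act at cell membranes. They were chosen by name, 6 of the 35796 genes listed for the series, and each had 1 row in both the LSK and the GMP table. The series title describes a melanoma-bearing mouse model, and the labels give bone marrow and the strain C57BL/6. Libraries were made with Smart-Seq2, which amplifies full-length cDNA from very small amounts of RNA. LSK stands for lineage-negative cells with Sca-1 and Kit, a fraction rich in stem cells, and GMP for the more committed granulocyte-monocyte progenitors. There were 4 groups of 3 libraries: LSK control, LSK treated with the STING agonist diABZI, GMP control and GMP treated with the same agonist. The comparison asks how activating STING, a sensor of cyclic dinucleotides, changes the RNA of these progenitors. Dose, time, age of the mice, what controls received and the number of cells or mice behind a library are not stated. Whether the libraries within a group are different animals is also unstated, and a p-value then measures only their spread, which may be technical.

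Library totals ran from 30649314 to 47225983 counts, and levels are counts per 1000000 of that total (CPM). Ly6a, which encodes the Sca-1 that defines LSK cells, stood at 0.402 to 0.827 CPM in the LSK control libraries, while Kit stood at 194 to 345 CPM. The 8 markers fixed for LSK cells summed to 274 to 429 CPM in LSK controls, whereas the 8 erythroid markers summed to 8906 to 13566 CPM there, 10690 to 14827 CPM in treated LSK and 47.2 to 89.6 CPM in GMP. Among the erythroid markers Car1, a carbonic anhydrase gene, averaged 2877 ± 840.0 CPM in LSK controls, and the transcription factor genes Klf1 and Gata1 averaged 641 ± 128 and 442 ± 116 CPM. Car2, a further carbonic anhydrase gene, averaged 6951 ± 1318 CPM there, so Car1 and Car2 made up most of the sum. The globin genes of the list overlapped between LSK and GMP controls. Hbb-bt stood at 0.209 to 0.423 and 0.143 to 0.375 CPM, and Hba-a1 at 5.87 to 19 and 6.41 to 8.59 CPM. The low Ly6a and the high erythroid sum go against the label, and LSK is used below only as the label of these libraries. The part of erythroid cells in differences between LSK and GMP was not tested. Mpo, the myeloperoxidase of granulocyte-monocyte progenitors, stood at 19490 to 20920 CPM in GMP controls. In these bulk libraries fewer cells of a type and less RNA per cell cannot be told apart.

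STING signals through TBK1 and IRF3 to type I interferon, whose receptor signals to the nucleus. Promoters of many induced genes carry the interferon-stimulated response element (ISRE). Bst2 encodes tetherin, which holds budding enveloped virions at the cell surface and is also a customary marker of mouse plasmacytoid dendritic cells. Rsad2 encodes viperin, a radical SAM enzyme at the endoplasmic reticulum and lipid droplets that makes a chain-terminating nucleotide. The IFITM proteins are small membrane proteins that hinder the fusion of enveloped viruses with cell membranes, IFITM3 mainly in endosomes and IFITM1 mainly at the cell surface. In mouse and human tissues IFITM3 and its relatives are also known to be expressed in stem cells without interferon.

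The ISRE core was searched in the promoters on both strands as GAAA, any 2 bases and GAAA again, from 250 bases before to 50 bases after the RefSeq start (build GRCm38.p6). All 6 genes had 1 promoter in that table. A match was present in 4 of the 6, those of Bst2, Rsad2, Ifitm2 and Ifitm3, and in 3.44% of all 32851 promoters searched. Of the 5 promoters shown, 3 belong to genes that passed the test in LSK or in both cell types, 1 to a gene with a match that passed in neither and 1 to a gene without a match. The letters run from 250 bases before to 30 bases after the start, with ISRE core matches in capitals.
Bst2, chr8:71537443-71537722, minus strand, rose in both cell types: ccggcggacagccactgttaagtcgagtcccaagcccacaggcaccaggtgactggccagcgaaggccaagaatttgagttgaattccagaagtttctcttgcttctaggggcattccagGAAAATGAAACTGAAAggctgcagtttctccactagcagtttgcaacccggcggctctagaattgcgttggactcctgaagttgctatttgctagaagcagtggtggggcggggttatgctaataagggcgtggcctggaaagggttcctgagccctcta
Ifitm3, chr7:141010715-141010994, minus strand, rose in both cell types: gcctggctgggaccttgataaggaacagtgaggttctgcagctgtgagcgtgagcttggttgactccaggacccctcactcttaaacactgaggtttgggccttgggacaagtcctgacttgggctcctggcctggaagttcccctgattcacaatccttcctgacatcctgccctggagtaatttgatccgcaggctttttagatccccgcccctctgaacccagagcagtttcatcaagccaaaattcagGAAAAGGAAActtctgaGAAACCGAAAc
Rsad2, chr12:26456423-26456702, minus strand, rose in LSK: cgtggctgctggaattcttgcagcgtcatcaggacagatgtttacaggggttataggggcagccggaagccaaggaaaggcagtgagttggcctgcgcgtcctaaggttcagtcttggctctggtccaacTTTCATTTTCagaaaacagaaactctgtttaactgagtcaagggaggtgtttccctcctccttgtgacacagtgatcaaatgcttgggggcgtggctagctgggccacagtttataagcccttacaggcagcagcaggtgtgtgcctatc
Ifitm2, chr7:140955932-140956211, minus strand, holds a match and was not called: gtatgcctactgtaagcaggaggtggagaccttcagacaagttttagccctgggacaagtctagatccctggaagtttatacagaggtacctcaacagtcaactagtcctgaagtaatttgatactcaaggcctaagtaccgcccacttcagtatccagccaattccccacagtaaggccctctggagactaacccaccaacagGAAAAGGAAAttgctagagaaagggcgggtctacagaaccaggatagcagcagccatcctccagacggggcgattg
Ifitm1, chr7:140967826-140968105, plus strand, holds no match and was not called: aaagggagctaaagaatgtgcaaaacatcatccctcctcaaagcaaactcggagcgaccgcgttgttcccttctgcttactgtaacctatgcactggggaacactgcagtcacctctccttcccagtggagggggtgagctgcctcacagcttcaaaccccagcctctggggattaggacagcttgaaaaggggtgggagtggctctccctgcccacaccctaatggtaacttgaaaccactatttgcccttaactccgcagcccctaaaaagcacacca

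Bst2 held 2 overlapping matches, the first at 130 bases before the start, and Ifitm3 held 2 just downstream of the start, at bases 3 and 20. Rsad2 held 1 match on the opposite strand, 120 bases before the start, and Ifitm2 held 1 at 46 bases before it. These are matches of letters and not binding sites. For Ifitm1 and Ifitm6 the stretch searched lies wholly inside the gene interval given below. Bases before the start of that interval were thus not searched for these 2 genes.

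In LSK libraries Bst2, Rsad2 and Ifitm3 rose with the agonist, while Ifitm1 and Ifitm2 were not called. Ifitm3 had the largest change of the 6 in LSK. The test was the quasi-likelihood test of edgeR with Benjamini-Hochberg adjustment over all tested genes at 0.05, and it called 3 of the 5 genes that passed the filter on low counts, beside 0.338% of the 13922 genes tested. In the same 3 genes every treated library lay above every control, as in 7.13% of all tested genes. Every gene it called in LSK was higher. The median log2 change of the 5 was 2.07, against 0.022 over all tested genes.

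Tetherin RNA (Bst2, chromosome 8 from 71534255 to 71537456) had 98.1, 88.7 and 112 CPM in LSK controls 1, 2 and 3 and at 385, 352 and 404 CPM after the agonist. All 3 treated libraries lay far above all 3 controls, with little spread within a group. The mean went from 99.5 ± 11.6 to 380.1 ± 26.4 CPM (SD, n = 3), or 2.07 ± 0.19 (SE) on the log2 scale, with an adjusted p of 0.00405 in edgeR. In GMP, Bst2 stood at 168, 120.5 and 198 CPM in controls and 511, 479 and 454 CPM after the agonist. Again the groups did not overlap, and the control libraries spread more than in LSK. The log2 change in GMP was 1.62 ± 0.22 (edgeR adjusted p = 0.015).

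Ifitm3 (chromosome 7 from 141009586 to 141010770) was the most abundant of the 6 in every treated library. In LSK its level was 101, 61.8 and 85.8 CPM in controls and 814, 583 and 637 CPM after the agonist. The lowest treated library was several times the highest control. The mean went from 83.0 ± 19.9 to 678 ± 121 CPM, a log2 change of 3.18 ± 0.25 or 9.06-fold (edgeR adjusted p = 0.00214). In GMP it was 175, 114 and 261 CPM in controls and 909, 880.1 and 794 CPM after the agonist. Treated and control libraries were again fully apart, with a log2 change of 2.28 ± 0.30 or 4.87-fold (edgeR adjusted p = 0.0123).

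Viperin RNA (Rsad2, chromosome 12 from 26442746 to 26456452) was measured at 14.4, 19.8 and 27.9 CPM in the 3 LSK controls and 104, 78.4 and 111 CPM after the agonist. These groups did not overlap. The log2 change was 2.36 ± 0.32 (edgeR adjusted p = 0.0267), the weakest call of the 3 in LSK. It was lost without control 1 (adjusted p = 0.0698), control 2 (0.118), agonist 1 (0.145), agonist 2 (0.0763) or agonist 3 (0.077), while the log2 change stayed between 2.13 and 2.66 in the 6 fits without 1 library.

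In GMP, Rsad2 stood at 4.39, 0.0312 and 7.60 CPM in controls and 56.4, 48.8 and 32.8 CPM after the agonist. The second control held 1 count, where the other controls held 154 and 257. Although treated and control libraries did not overlap, the difference did not pass the test over all genes, with a log2 difference of 3.56 ± 1.01 (edgeR adjusted p = 0.261). Without GMP control 2 it passed, at a log2 change of 2.997 (adjusted p = 0.0133). Over the 6 fits without 1 library the log2 change ran from 2.997 to 4.435 and the edgeR adjusted p from 0.0133 to 0.69.

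In GMP the test called 2 of the 6 genes, Bst2 and Ifitm3, both higher, beside 0.386% of 15027 tested genes called higher. At an unadjusted p below 0.05 Rsad2 and Ifitm1 were also higher, making 4 of 6 beside 4.30% of all genes. Groups did not overlap for Bst2, Rsad2 and Ifitm3, as in 6.29% of all genes in that direction. Both calls were lost in 4 of the 6 fits without 1 library. The adjusted p of Bst2 and of Ifitm3 was 0.0716 and 0.0652 without control 1, 0.115 and 0.0716 without agonist 1, 0.114 and 0.0841 without agonist 2, and 0.0904 and 0.0854 without agonist 3. Their log2 changes stayed between 1.45 and 1.84 and between 2.04 and 2.67 in all 6.

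**Figure D1:**
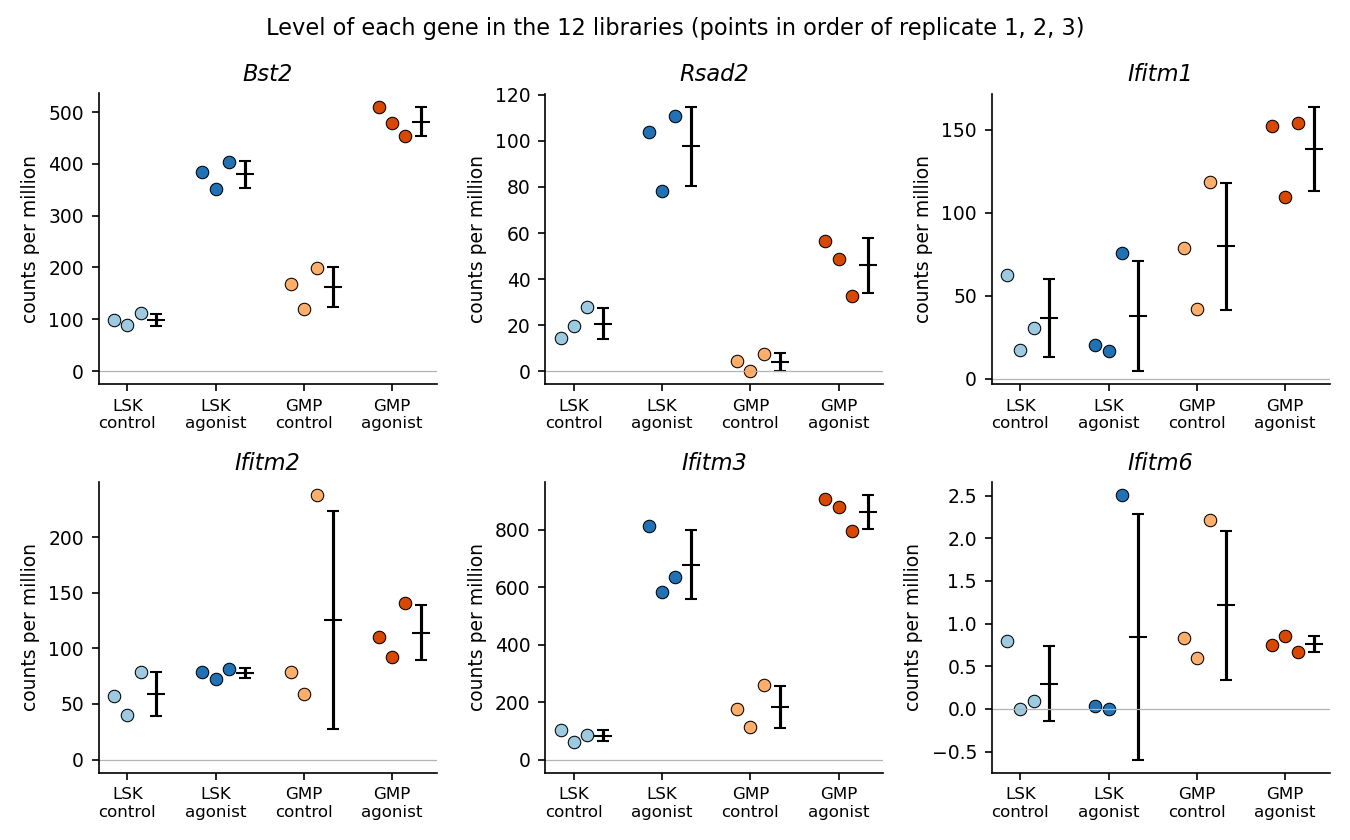
Level of each gene in CPM, with 1 point per library, in order of replicate within each of the 4 groups, and the mean and SD of the 3 libraries beside them. Bst2, Rsad2 and Ifitm3 show treated libraries wholly above controls in both cell types, whereas for Ifitm1, Ifitm2 and Ifitm6 treated and control libraries overlap.

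Ifitm1 (chromosome 7 from 140967221 to 140969825) was spread widely among LSK libraries, at 62.8, 17.2 and 30.4 CPM in controls and 20.7, 16.8 and 76.0 CPM after the agonist. The groups overlapped and no direction could be read, with a log2 difference of 0.17 and a 95% interval from -1.27 to 1.60 (edgeR adjusted p = 0.948). In GMP it stood at 78.8, 41.9 and 119 CPM in controls and 152, 109 and 154 CPM after the agonist. Only the highest control overlapped the lowest treated library, and the log2 difference of 0.84, with an interval from 0.06 to 1.63, did not pass (edgeR adjusted p = 0.516).

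Ifitm2 (chromosome 7 from 140954837 to 140955987) was found at 57.3, 40.4 and 79.2 CPM in control LSK libraries and 78.7, 72.6 and 81.6 CPM after the agonist. The log2 difference was 0.53, with an interval from -0.11 to 1.17 (edgeR adjusted p = 0.503). In GMP the controls were at 78.7, 59.1 and 238 CPM and the treated libraries at 110.3, 91.9 and 140.5 CPM. Control 3 was the highest GMP library for this gene and control 2 the lowest. The log2 difference was -0.09, from -1.14 to 0.95 (edgeR adjusted p = 0.986), and without control 3 it was 0.83 (adjusted p = 0.27).

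Ifitm6 (chromosome 7 from 141015699 to 141017924), whose function is less well described, was close to undetected. LSK controls held 26, 0 and 3 counts and treated LSK libraries 1, 0 and 98 counts, and the gene fell below the filter there. GMP controls held 29, 19 and 75 counts and treated GMP libraries 23, 31 and 26. The log2 difference in GMP was -0.63, from -2.79 to 1.54 (edgeR adjusted p = 0.92), which leaves changes in either direction possible at this depth.

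**Figure D2:**
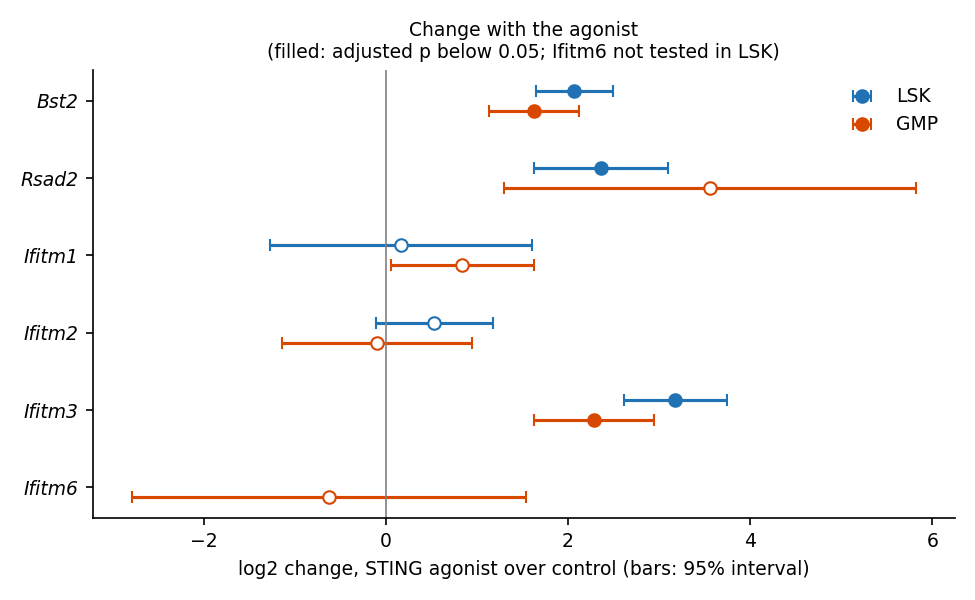
Log2 change of each gene with the agonist (x axis) in LSK and GMP, with 95% intervals; filled points passed an adjusted p of 0.05. The intervals of Bst2, Rsad2 and Ifitm3 lie above 0 in both cell types, those of Ifitm2 and Ifitm6 span 0, and that of Ifitm1 spans 0 in LSK.

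Levels of different genes were compared per kilobase of exon. After the agonist Ifitm3 stood at 1000 ± 178 CPM per kb in LSK and 1270 ± 87.7 in GMP, and Bst2 at 421 ± 29.2 and 533 ± 31.2. Rsad2, with 4.335 kb of exon the longest of the 6, stood at 22.6 ± 3.95 and 10.6 ± 2.78 CPM per kb. In controls Ifitm3, Bst2 and Ifitm2 lay close together in LSK, at 122 ± 29.3, 110.2 ± 12.8 and 90.02 ± 29.7 CPM per kb. Within each LSK control Ifitm3 lay above Ifitm2, at 149.4, 91.2 and 126.6 against 87.5, 61.7 and 120.9 CPM per kb. The same held within each GMP control, at 258, 168 and 384.5 against 120, 90.2 and 363 CPM per kb. The ranges of these 2 genes over the controls of a cell type overlapped.

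The 6 genes together held 228 to 335 CPM in LSK controls and 1103 to 1402 CPM after the agonist, and 336 to 825 CPM in GMP controls and 1577 to 1739 CPM after it. Ifitm3 took 25.6 to 30.3% of this sum in LSK controls and 48.6 to 58.0% after the agonist. In GMP its share went from 31.6 to 34.6% to between 50.4 and 54.7%. The share of Bst2 stayed closer, at 29.3 to 38.9% and 27.5 to 31.9% in LSK and 24.0 to 35.8% and 28.8 to 29.8% in GMP.

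Ifitm1, Ifitm2, Ifitm3 and Ifitm6 lie together on chromosome 7. A ratio of counts within a library does not depend on its total. The ratio of Ifitm3 to Ifitm2 counts was 1.77, 1.53 and 1.08 in LSK controls and 10.3, 8.03 and 7.81 after the agonist. In GMP the ratio was 2.22, 1.93 and 1.10 in controls and 8.24, 9.57 and 5.65 after the agonist. The ratio was thus higher in every treated library than in any control of its cell type. By chromosome coordinate the start of Ifitm2 lies at -54.78 kb, that of Ifitm1 at -43.55 kb and that of Ifitm6 at 7.15 kb from the start of Ifitm3. With each of the 3 scalings tried in edgeR (TMM, median of ratios and library size alone), Ifitm3 was called in both cell types and neither Ifitm1 nor Ifitm2 was.

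Paralogs can share reads. Of all 50-base stretches in the annotated transcripts of Ifitm3, 10.0% also occur in another gene's transcripts, among them those of Ifitm1 and Ifitm2. Taken separately, neither Ifitm1 nor Ifitm2 accounted for more than 3.18%, and a figure for both together is not reported here. For Ifitm2 the share found in another gene's transcripts was 48.5%, and 3.30% were shared with Ifitm3. The genes sharing stretches with Ifitm2 include Gm45717, an annotated gene on the same strand that shares 268 exon bases with it. For Ifitm1 the share was 5.02%, and for Bst2, Rsad2 and Ifitm6 it was 0. How reads with several matches were counted is not given in the sources used here, so the level of Ifitm2 is uncertain to that extent.

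**Figure D3:**
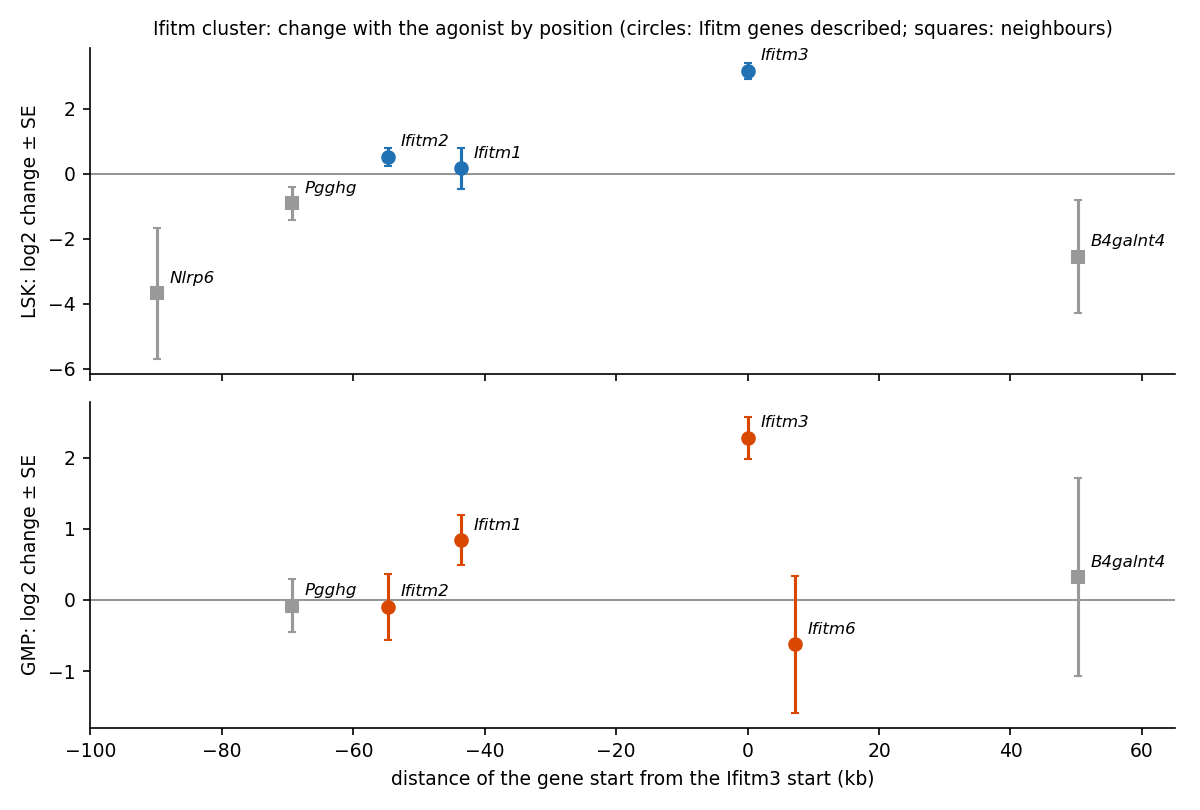
Log2 change with the agonist (± SE) of tested genes in and around the Ifitm cluster, by distance of the gene start from the Ifitm3 start in kb, for LSK above and GMP below. Ifitm3 stands at 3.18 and 2.28, and no other gene drawn passed the test.

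Chromosomal neighbours within 50 kb of the 6 genes were examined as well. Of 21 such neighbours 11 reached 1 CPM in a group mean. The test in edgeR called 0 of 10 tested in LSK and 0 of 9 in GMP, where at an unadjusted p below 0.05 there were 2 and 2, DESeq2 called 2 and 1, and limma-voom 0 and 0. Over all genes DESeq2 called 519 of 13922 in LSK and 334 of 15027 in GMP, and limma-voom 55 and 59. The share of all genes at the unadjusted threshold in either direction is not reported here, so unadjusted counts of neighbours and lists are descriptions only. The neighbour nearest to a call was Cmpk2, a mitochondrial nucleotide kinase gene 12.8 kb from Rsad2 and transcribed away from it. Its level was above all controls in every treated library of its cell type, with log2 differences of 1.505 ± 0.32 in LSK (edgeR adjusted p = 0.164) and 1.09 ± 0.27 in GMP (edgeR adjusted p = 0.198). DESeq2 called Cmpk2 in both cell types, and the authors' deposited adjusted p is 0.00136 in LSK and 0.0134 in GMP. The ratio of Rsad2 to Cmpk2 counts was 0.301, 0.225 and 0.288 in LSK controls and 0.619, 0.334 and 0.552 after the agonist. It was 0.140, 0.00165 and 0.223 in GMP controls and 1.06, 0.790 and 0.563 after the agonist. Within 50 kb of Bst2 lies Mvb12a, a gene of the endosomal sorting machinery 5.47 kb away. Mvb12a had log2 differences of 0.88 ± 0.24 in LSK (edgeR adjusted p = 0.279) and 0.11 ± 0.20 in GMP (edgeR adjusted p = 0.937). DESeq2 called Mvb12a in LSK, where its unadjusted p in edgeR was below 0.05. On the Ifitm side Pgghg had -0.91 ± 0.50 and -0.08 ± 0.37, and neither passed.

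The difference of the agonist effect between the cell types was tested as an interaction over all 12 libraries. The test called 0 of the 6 genes, with 0 at an unadjusted p below 0.05 and 0 in DESeq2 and limma-voom, and 0% of all 16857 genes tested. At an unadjusted p below 0.05 the share over all genes was 10.1%. The difference, GMP minus LSK, was -0.84 for Ifitm3, with an interval from -1.69 to 0.0043 (edgeR adjusted p = 0.493). It was -0.40 for Bst2 (SE 0.28, edgeR adjusted p = 0.646) and 1.25 for Rsad2 (interval -1.30 to 3.81). These errors leave room for sizeable differences, so the effects are not shown to be alike.

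Between the cell types, the order of levels differed among the 3 genes. Bst2 was lowest in LSK controls, then GMP controls, treated LSK and treated GMP, and no neighbouring groups in this order overlapped. Ifitm3 followed the same order, with overlap between treated LSK and treated GMP. Rsad2 had another order, with GMP controls lowest, then LSK controls, treated GMP and treated LSK, again without overlap. Non-overlap of controls was found for 15.1% of all genes with GMP higher and 14.9% with GMP lower, and of treated libraries for 20.0% and 16%. In controls Ifitm3 was higher in GMP than in LSK by 1.15 ± 0.28 on the log2 scale (edgeR adjusted p = 0.0198) and Bst2 by 0.70 ± 0.20 (edgeR adjusted p = 0.0402). These were the 2 of 6 genes called in edgeR, beside 4.55% of 16857 tested genes called higher in GMP. DESeq2 and limma-voom each called 3 of the 6, beside 3042 and 2912 of the 16857 genes, and DESeq2 added Ifitm2. In edgeR the log2 differences of Ifitm2 and Ifitm1 were 1.08 ± 0.44 and 1.15 ± 0.57 (edgeR adjusted p = 0.139 and 0.227). Rsad2 had a log2 difference of -2.37 ± 0.88 (edgeR adjusted p = 0.106), and without GMP control 2 it was -1.74 (adjusted p = 0.0194). Over the 12 fits without 1 library this difference ran from -3.20 to -1.74 and its edgeR adjusted p from 0.0194 to 0.238.

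The baseline calls were lost in several fits without 1 library, while the log2 difference stayed between 0.81 and 1.46 for Ifitm3 and between 0.53 and 0.94 for Bst2. The call of Ifitm3 was lost without LSK control 2 (adjusted p = 0.0824), GMP control 1 (0.0543) or GMP control 3 (0.0869). That of Bst2 was lost without LSK control 1 (0.104) or 2 (0.14), LSK agonist 1 (0.0582), GMP control 1 (0.13) or 3 (0.162), or GMP agonist 1 (0.0656), 2 (0.0597) or 3 (0.0605). After the agonist 0 of the 6 genes were called between the cell types in edgeR, 1 at an unadjusted p below 0.05, 1 in DESeq2 and 2 in limma-voom. Over all genes edgeR called 9.42%, and 12.5% were higher in GMP at the unadjusted threshold. DESeq2 called 2786 and limma-voom 2319 of the 16857 genes. Ifitm1 was among the genes counted at the unadjusted threshold, in DESeq2 and in limma-voom. Its log2 difference was 1.87 ± 0.58 (edgeR adjusted p = 0.0621), and without LSK agonist 3 it was 2.83 (adjusted p = 0.00525). Over the 12 fits without 1 library this difference ran from 1.53 to 2.83 and its edgeR adjusted p from 0.00525 to 0.21. Over the 12 libraries Ifitm1 and Ifitm2 were both higher in every treated GMP library than in any treated LSK library.

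In some groups the same library was lowest or highest for most of the 6 genes. GMP control 2 was the lowest of its group for 6 of 6 genes and GMP control 3 the highest for 6 of 6. Treated LSK 2 was the lowest of its group for 6 of 6, and LSK control 2 for 5 of 6. In treated GMP the order was mixed, with replicate 3 lowest for 4 genes and highest for 2, and LSK controls 1 and 3 were each highest for 3. Markers of other cells moved with some of these libraries. The summed level of the 8 neutrophil markers was 386 CPM in GMP control 3, which had the highest Ifitm2, against 20.6 and 16.2 CPM in the other GMP controls and 5.79 to 19.7 CPM in treated GMP. The sum of the 8 GMP markers was 10903 CPM in treated LSK 3, which had the highest Ifitm1 of the LSK libraries and 98 of the 99 Ifitm6 counts in its group. It was 3575 and 1313 CPM in the other treated LSK libraries and 4203, 489.96 and 4101 CPM in LSK controls. In the same order the 7 listed monocyte and macrophage markers summed to 546, 214 and 49.96 CPM in treated LSK 3, 1 and 2, and to 113, 3.56 and 213 CPM in controls. The neutrophil sum in treated LSK 3 was 368 CPM, against 11.9 and 4.48 CPM in the other treated LSK libraries and 1.27 to 5.14 CPM in LSK controls. The part of such cells in the levels of Ifitm1, Ifitm2 and Ifitm6 was not tested.

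Because Bst2 is also a plasmacytoid dendritic cell marker, 8 other markers of those cells were read beside it. In GMP the 7 listed summed to 515 to 1073 CPM in controls and 391 to 401 CPM after the agonist, so this sum was lower where Bst2 was higher. Most of that sum was Irf8 and Tcf4, which progenitors also express. Siglech, the most specific of them, stood at 0 to 1.39 CPM in GMP controls and 0 to 0.359 CPM in treated GMP, and had 0 counts in LSK controls and 1 in treated LSK. Dntt and Ly6d had 0 counts in treated GMP, and their 3 and 17 counts in GMP controls all came from control 3. Ccr9 stood at 0.998, 0.656 and 1.33 CPM in GMP controls and 0.294, 0 and 0.387 CPM after the agonist. Cox6a2 went the other way, at 1.11, 1.25 and 1.45 CPM in GMP controls and 4.34, 2.38 and 3.12 CPM after the agonist. In LSK the 6 listed summed to 103 to 315 CPM in controls and 70.2 to 259 CPM after the agonist. Over the 8 markers fixed for LSK cells the sum was 274 to 429 CPM in LSK controls and 172 to 189 CPM in treated LSK, without overlap. Most of that sum was Kit. Ly6a alone of that list had a higher mean in treated LSK, at 0.402 to 0.827 CPM in controls and 5.31 to 9.07 CPM after the agonist. In GMP, Ly6a stood at 0 to 0.562 CPM in controls and 17.5 to 25.9 CPM after the agonist. The sum of the LSK list in GMP was 187 to 244 and 179 to 214 CPM. The 8 megakaryocyte and platelet markers also separated the LSK groups, at 149 to 321 CPM in controls and 17.2 to 51.4 CPM after the agonist. In GMP the erythroid sum was 82.3 to 89.6 CPM in controls and 47.2 to 54.2 CPM after the agonist, and the sum of 8 B cell markers was 182 to 210 CPM and 122 to 125 CPM. The part of these shifts in the agonist results was not tested.

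**Figure D4:**
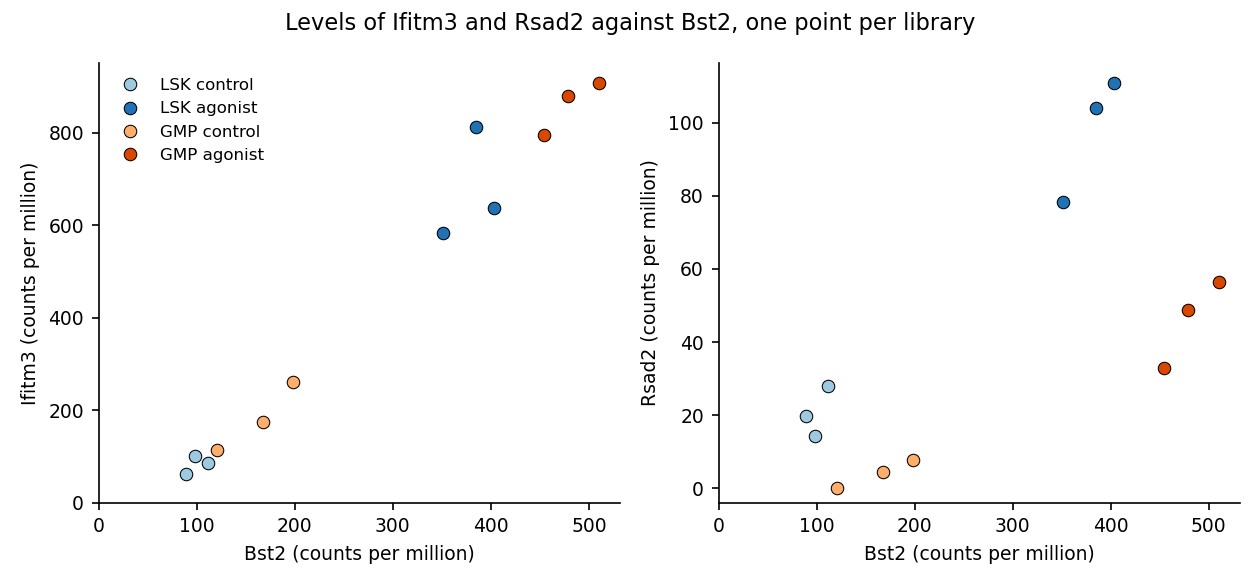
Levels of Ifitm3 (left) and Rsad2 (right) against Bst2, both in CPM, with 1 point per library coloured by group. Ifitm3 climbs with Bst2 through all 4 groups. For Rsad2 the LSK libraries lie above the GMP libraries of the same treatment, whose Bst2 is higher.

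Likeness of pattern was measured as Pearson's r of log2(CPM + 1) over the 12 libraries. Control and treated libraries form separate sets and every r spans them, so these values are descriptions. Bst2 and Ifitm3 had r = 0.993, while Rsad2 had 0.644 with Bst2 and 0.637 with Ifitm3. Ifitm1 had 0.678 with Ifitm2 and 0.743 with Ifitm6, but 0.399 with Ifitm3. Among the 16851 other genes the most like Bst2 were Oas1g (0.965), an oligoadenylate synthetase gene, and H2-K1 (0.953) and B2m (0.946), which encode the chains of an MHC class I molecule. The same 3 genes were the most like Ifitm3, at 0.960, 0.961 and 0.962. Those most like Rsad2 were others, namely Rtp4 (0.921), Irf7 (0.908) and Tgtp2 (0.906).

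Of 12 genes of type I interferon signalling, all 12 tested in both cell types, edgeR called 3 higher in LSK and 1 in GMP, beside 0.338% and 0.386% of all tested genes, and none lower. At an unadjusted p below 0.05 there were 6 and 7 in either direction, DESeq2 called 4 and 4, and limma-voom 3 and 1. Over all genes DESeq2 called 519 of 13922 and 334 of 15027, and limma-voom 55 and 59. The unadjusted share over all genes in either direction is not reported here. Irf7, the transcription factor that amplifies interferon production, rose by a log2 change of 3.77 ± 0.33 in LSK (edgeR adjusted p = 0.00358) and 5.05 ± 0.44 in GMP (edgeR adjusted p = 0.00122). Usp18, a protease that dampens the receptor, rose by 3.13 ± 0.35 in LSK (edgeR adjusted p = 0.0117). In GMP it had 2.54 ± 0.57 (edgeR adjusted p = 0.152) and did not pass. The median log2 change of the list was 0.84 in LSK and 0.54 in GMP, against 0.022 and -0.041 over all genes tested. The receptor genes Ifnar1 and Ifnar2 had -0.40 ± 0.34 and 0.61 ± 0.26 in LSK and -0.05 ± 0.34 and -0.54 ± 0.21 in GMP.

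Other membrane-level antiviral genes were not called in edgeR. Of 6 tested in each cell type edgeR called 0 and 0, with 1 and 3 at an unadjusted p below 0.05, DESeq2 called 1 and 2, and limma-voom 1 and 0. The numbers over all genes were 519 of 13922 and 334 of 15027 in DESeq2 and 55 and 59 in limma-voom. The unadjusted share over all genes in either direction is not reported here. Ly6e, which hinders coronavirus entry, had log2 differences of 1.42 ± 0.26 in LSK (edgeR adjusted p = 0.0998) and 0.75 ± 0.19 in GMP (edgeR adjusted p = 0.198). Lgals3bp, a secreted galectin-binding protein gene, had 0.49 ± 0.43 and 2.46 ± 0.49 (edgeR adjusted p = 0.712 and 0.089). The genes called by DESeq2 were Ly6e in both cell types and Lgals3bp in GMP. The authors' deposited adjusted p is 6.66e-05 in LSK and 0.0351 in GMP for Ly6e, and 0.636 and 4.32e-05 for Lgals3bp. For Serinc5, lower in GMP, it is 0.0306 there and 0.991 in LSK. The median of this list was 0.28 in LSK and 0.16 in GMP.

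Genes for partners and modifying enzymes of these proteins were also not called in edgeR. Of 12 tested, edgeR called 0 in LSK and 0 in GMP, with 2 and 1 at an unadjusted p below 0.05, DESeq2 called 2 and 1, and limma-voom 0 and 0. The numbers over all genes were 519 of 13922 and 334 of 15027 in DESeq2 and 55 and 59 in limma-voom. The unadjusted share over all genes in either direction is not reported here. The medians of this list were -0.06 and 0.08. Zmpste24, a protease that works with IFITM proteins, had -0.61 ± 0.33 and 0.33 ± 0.18. Nedd4, a ubiquitin ligase that targets IFITM3, had -0.63 ± 0.19 and -0.23 ± 0.16, and Zdhhc20, which palmitoylates it, -0.64 ± 0.50 and -0.03 ± 0.20. DESeq2 called Nedd4 and Cmpk2 in LSK and Cmpk2 in GMP, and the authors' deposited adjusted p of Nedd4 is 0.0237 in LSK and 0.621 in GMP.

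Among the other IFITM genes 3 of 4 were listed and 1, Ifitm7, passed the filter in the fits within a cell type. Ifitm7 had log2 differences of -0.39 ± 2.41 in LSK and -0.13 ± 0.36 in GMP (edgeR adjusted p = 0.972 in both). For the agonist effect within each cell type edgeR called 0, with 0 at an unadjusted p below 0.05 and 0 in DESeq2 and limma-voom. Ifitm5, a bone-associated relative, reached at most 0.492 CPM in a group mean. Ifitm10 had 0 counts in the GMP controls and 68, 2 and 25 counts in treated GMP, at least 30.3-fold higher when the control group is set to a floor of 3 counts. Its 3 treated libraries differed widely, and within GMP and within LSK it stayed below the filter and was not tested. In the joint fit it had an unadjusted p below 0.05 for the interaction (edgeR adjusted p = 0.421) and for GMP against LSK in controls (edgeR adjusted p = 0.176), and passed neither. The authors' deposited table gives Ifitm10 an adjusted p of 0.0209 in GMP.

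**Figure D5:**
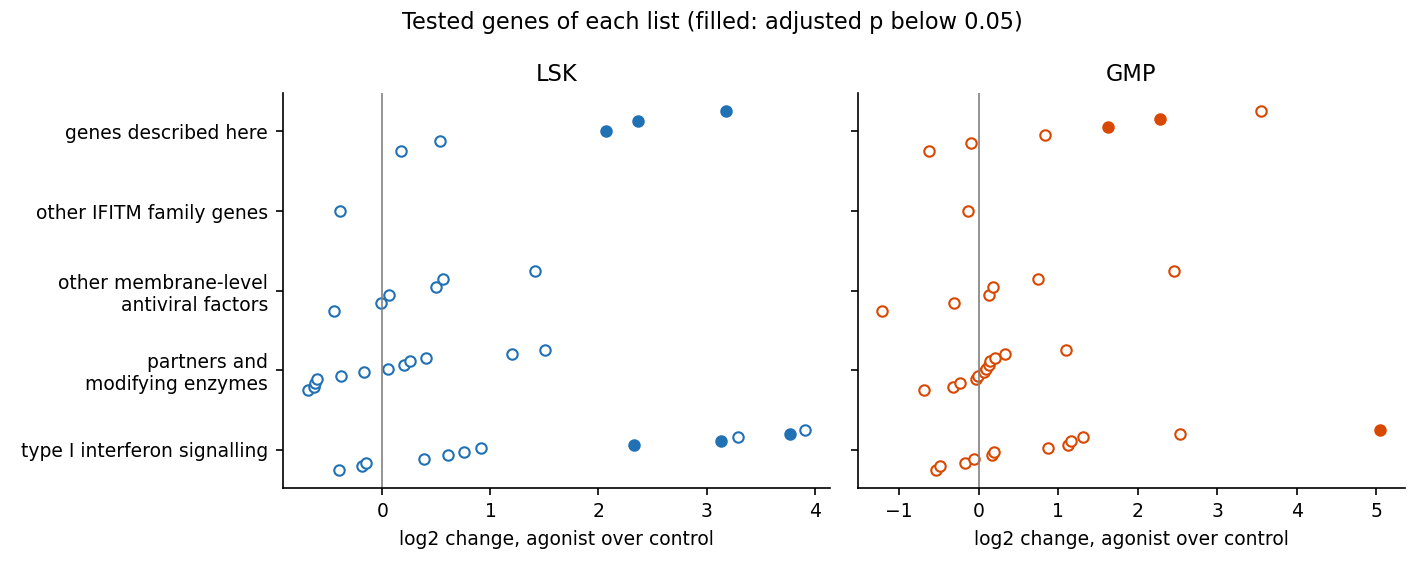
Log2 change with the agonist (x axis) of each tested gene, by list, for LSK on the left and GMP on the right; filled points passed an adjusted p of 0.05. Calls appear among the genes described here and among the type I interferon signalling genes, where Irf7 reaches 3.77 in LSK and 5.05 in GMP.

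The authors' deposited table gives the same sign for all 3 called genes. Its adjusted p in LSK is 3.6e-39 for Bst2, 3.15e-33 for Ifitm3 and 1.29e-10 for Rsad2. In GMP the authors' deposited table gives 2e-08 for Bst2, 1.31e-10 for Ifitm3 and 0.214 for Rsad2. The sources used here do not name the tool behind these values.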

How the data were processed

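Raw read counts for every gene and library were deposited in separate tables for LSK and GMP, per the file headers. The log2 fold changes in them are the authors' own. The adjusted p-values beside these were also deposited by the authors. Libraries were made with Smart-Seq2, per the labels' protocols. How reads were aligned and counted, whether by strand, and what tested them is not given in the sources used here. Although the build mm9 is listed in the submitters' processing notes, the positions of all 6 genes, and of 94.7% of matched LSK and 94.8% of matched GMP identifiers, were those of GRCm38 in GENCODE release M21, and are given as such.

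Groups came from each library's title. Counts were fitted over all genes with edgeR 4.0.16 in R 4.3.3 (quasi-likelihood test, TMM factors, filterByExpr), separately for LSK and GMP, and jointly for the 24982 genes in both tables. The script was tested on simulated data. The standard error is the log2 change divided by the square root of F. CPM uses library totals without TMM. The reads carry no molecular identifiers, so the floor of 3 counts covers counting error only. DESeq2 1.42.0, limma 3.58.1 and other scalings, filters, blocks and left-out libraries were alternatives.

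The genes and lists were chosen with earlier results of these data known. The text names all 6 genes, up to 6 called genes per list, all genes of a list of 4 or fewer, neighbours within 50 kb with at least 1 CPM in a group mean (in part as counts), and the 3 genes most alike each called gene. Further list members named without a call were chosen after their values were seen. A gene the rule names is not reported here. Lengths of exons came from GENCODE M21 and promoters from RefSeq.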

Additional observations from a re-analysis of the deposited data

How the results depend on the processing

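Of the 6 genes, the count called in LSK was 3 with DESeq2, limma-voom, each scaling and each filter, 2 in the joint fit, 2 to 3 without 1 library and 1 (Ifitm3) with the replicate block. In GMP it was 2 with DESeq2, limma-voom, each scaling, the stricter filter and the joint fit, 4 with no filter, 0 with the replicate block and 0 to 3 without 1 library. The interaction count was 0 under every alternative run. Between cell types it was 0 to 4 in controls and 0 to 1 after the agonist without 1 library. After the agonist it was 1 with DESeq2, 2 with limma-voom, 1 with no filter and 1 with the replicate block. The cause was not tested where libraries were not removed.

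Deviations of same-numbered libraries did not all correlate above 0.1 (0.0643, 0.151 and 0.0246 in LSK and 0.0284, -0.0225 and 0.0231 in GMP), so replicate numbers were not taken as pairs. With the replicate block all genes called fell to 10 in LSK and 20 in GMP, and the adjusted p of Ifitm3 in GMP was 0.0508. Over all genes the called number was 47 in LSK, ranging from 10 to 557 over the alternatives, and 64 in GMP, ranging from 18 to 334. DESeq2 called 519 of 13922 genes in LSK and 334 of 15027 in GMP. With no filter it was 557 of 29736 and 275 of 31042. Between cell types the called number over all genes ranged from 1019 to 3042 in controls and from 850 to 2786 after the agonist. With library size alone the median log2 change of all LSK genes was -0.12, against 0.022 with TMM. For the interaction DESeq2 called 176 of all genes and edgeR 0.

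Bst2, Ifitm3 and Rsad2 kept the sign of their agonist effect under every alternative. Some uncalled differences changed sign, while Ifitm1 in GMP (0.54 to 1.29) and Ifitm2 in LSK (0.33 to 0.83) kept theirs under every alternative. Ifitm1 in LSK was -0.16 without control 2 and ranged from -0.76 (without agonist 3) to 0.73 over the left-out libraries. Ifitm2 in GMP was 0.20 with limma-voom, 0.19 with the replicate block, 0.05 without agonist 2 and from -0.42 to 0.83 (without control 3) over all left-out libraries. Ifitm6 in GMP ranged from -0.94 to 0.20 (without control 3). Between cell types after the agonist Ifitm6 was 2.59 with limma-voom, 1.68 with the replicate block and from -0.70 to 5.41 (without LSK agonist 3). The interaction of Ifitm2 ranged from -0.96 to 0.30 (without GMP control 3) and that of Ifitm6 from -4.82 to 3.27 (without LSK agonist 3). With 3 libraries per group and low counts, Ifitm6 allows no statement on direction.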
